A study of Mus musculus with 96 samples.

Results

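Lipid-associated macrophages were followed in the liver of HFD and CD mice through 10 genes that are used to describe these cells. These genes were chosen by name, with earlier results of these data known: Gpnmb, Trem2, Cd9, Lgals3, Mmp12, Itgax, Cd68, Cd63, Capg and Cx3cr1. All 10 were found, each as 1 row, among the 21990 genes of the expression table, of which 20155 have values. C57BL/6N male mice, bought at 4 weeks of age, received a chow diet with 13.5% fat (CD, LabDiet 5001) or a high-fat diet with 60% fat (HFD, D12492 of Research Diets). Liver and pancreatic islets of the same 48 mice were sequenced after 4, 8, 12, 16, 20 or 24 weeks of diet, with 4 mice per diet and week, which gives 48 libraries per tissue in 12 groups. Their age at the start of the diet was not given in the labels, they name no genetic alteration, and each liver library came from a piece of whole homogenized tissue, so that hepatocytes and every other liver cell contributed RNA. Levels are FPKM, fragments per kilobase of transcript relative to all mapped fragments of the library, and differences are log2 fold changes (HFD over CD) of FPKM + 1 from limma, given with their standard error (SE) and an adjusted p from that fit. Gene positions are those of GRCm38.p6.

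Macrophages that take up lipid from dying or fat-laden cells switch on a common set of genes for lipid sensing, lysosomal digestion and matrix turnover. In fatty liver such cells gather around lipid-filled hepatocytes, beside the resident Kupffer cells. Trem2 is the surface receptor that senses lipids and lipoproteins in these cells and signals through the adaptor Tyrobp. Cx3cr1 is the receptor of the chemokine fractalkine, and Itgax encodes the integrin CD11c, which pairs with the beta chain Itgb2. Gpnmb is a transmembrane glycoprotein of lysosomes and melanosomes, Lgals3 is the secreted lectin galectin-3, and Mmp12 is the elastase of macrophages. Cd68 and Cd63 are membrane proteins of lysosomes and late endosomes, Cd9 is a tetraspanin of the cell surface, and Capg caps actin filaments. Several of them are not particular to macrophages: Cd63 and Cd9 are made by many epithelial and endocrine cells.

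The sequence before the transcription start is shown for Gpnmb, Trem2 and Mmp12, since the diets did not overlap in any week for Trem2, and since Mmp12 and Gpnmb are the genes whose HFD effect was called larger in late than in early weeks. Each line holds the 250 bases before a start site, 5′ to 3′ on the strand of the gene, from RefSeq on GRCm38.p6. All 10 genes had a promoter in that table, Mmp12 with 2 start sites, which gives 11 windows. Capitals mark matches, on either strand, to 4 motifs: the E-box CACGTG, the M-box TCATGTG, the AP-1 site TGANTCA and the core GGAAGT of ETS factors such as PU.1. No matches overlapped in these windows. The windows are chr6:49036268-49036517 for Gpnmb, chr17:48346151-48346400 for Trem2, and chr9:7344147-7344396 and chr9:7347124-7347373 for Mmp12, all on the + strand.
Gpnmb: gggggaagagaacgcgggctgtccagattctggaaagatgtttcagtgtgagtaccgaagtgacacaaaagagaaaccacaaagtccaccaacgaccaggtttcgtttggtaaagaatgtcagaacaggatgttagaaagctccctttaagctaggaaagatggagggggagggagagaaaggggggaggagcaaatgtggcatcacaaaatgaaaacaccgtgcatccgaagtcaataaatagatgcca
Trem2: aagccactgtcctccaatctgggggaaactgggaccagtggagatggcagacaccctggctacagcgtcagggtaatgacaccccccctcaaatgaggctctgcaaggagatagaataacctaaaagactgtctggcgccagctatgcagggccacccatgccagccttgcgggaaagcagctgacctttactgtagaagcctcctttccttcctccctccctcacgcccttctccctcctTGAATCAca
Mmp12, start site 1: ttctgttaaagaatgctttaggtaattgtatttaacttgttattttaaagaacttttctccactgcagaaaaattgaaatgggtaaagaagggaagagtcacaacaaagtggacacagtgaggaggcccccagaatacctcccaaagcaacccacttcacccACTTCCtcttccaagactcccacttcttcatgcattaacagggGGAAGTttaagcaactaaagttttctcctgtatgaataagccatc
Mmp12, start site 2: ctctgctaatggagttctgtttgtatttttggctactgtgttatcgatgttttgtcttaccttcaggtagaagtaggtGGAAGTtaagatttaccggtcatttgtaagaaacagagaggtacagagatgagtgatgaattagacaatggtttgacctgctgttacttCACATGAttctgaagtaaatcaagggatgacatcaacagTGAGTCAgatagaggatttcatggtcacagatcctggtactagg

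An AP-1 match was present in 4 of the 11 windows, those of Trem2 (9 bases before the start), the second start site of Mmp12 (44 bases before), Itgax (56 bases before) and Cd68 (149 and 24 bases before). Over all 32851 promoter windows of the same length, 6.75% held this motif. The ETS core was in 5 windows (both of Mmp12, and those of Itgax, Cd63 and Capg), against 19.7% of all windows. The M-box was in 1 window, the second of Mmp12, against 3.25%, and the E-box in none, against 6.02%. The Gpnmb window held no match to any of the 4. These are descriptions of letters, and binding was not measured.

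No library pair was identical. Within a group, libraries correlated with a median r between 0.986 and 0.995 in liver and between 0.986 and 0.997 in islets. Read counts were not part of the table, which leaves the depth behind each value unknown, and values have 2 decimals. Hepatocyte markers (8 genes) summed to 28635 to 68656 FPKM in liver and to 247 to 1062 FPKM in islets, and beta cell markers (6 genes) to 574547 to 991557 FPKM in islets. A few livers stood apart. The livers of CD306 (week 12) and CD407 (week 16) carried 3765 and 2615 FPKM of beta cell transcripts, against a median of 124 FPKM in CD livers. The liver of HFD517 (week 20) had the highest pan-macrophage sum, 218.9 FPKM, and the lowest hepatocyte sum.

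In the liver the levels of 9 of the 10 genes were higher in HFD mice, most clearly at week 16 (the plot of all 10 genes in liver), and Cd9 was the exception. The number called higher in HFD livers at an adjusted p under 0.05, of the 8 genes that passed the filter of a mean of 0.5 FPKM, rose from 0 (week 4) and 1 (week 8) to 5 (week 12) and 7 (week 16), and was then 1 (week 20) and 5 (week 24). None was called lower in any week, and at an unadjusted p under 0.05 there were 2 at week 4, Trem2 higher and Cd9 lower. Of all genes tested in liver, 0.0269% (week 4), 5.55% (week 8), 9.47% (week 12), 7.26% (week 16), 1.64% (week 20) and 0.664% (week 24) were called higher. Itgax and Cx3cr1 did not pass the filter and were fitted with no filter. Gpnmb and Mmp12, with means of 0.0996 and 0.181 FPKM in CD livers, passed it through the HFD livers alone, so their presence among the 8 favours a difference and the counts and medians over the 8 are descriptions. The median log2 fold change of the 8 genes went from 0.17 (week 4) through 0.74 (week 8) and 0.91 (week 12) to 1.52 (week 16), 1.58 (week 20) and 1.07 (week 24), beside medians over all genes between 0.03 and 0.11. Members of the list share cells and libraries and are not independent. In bulk tissue, more cells of a type and more RNA per cell cannot be told apart.

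**Figure D1:**
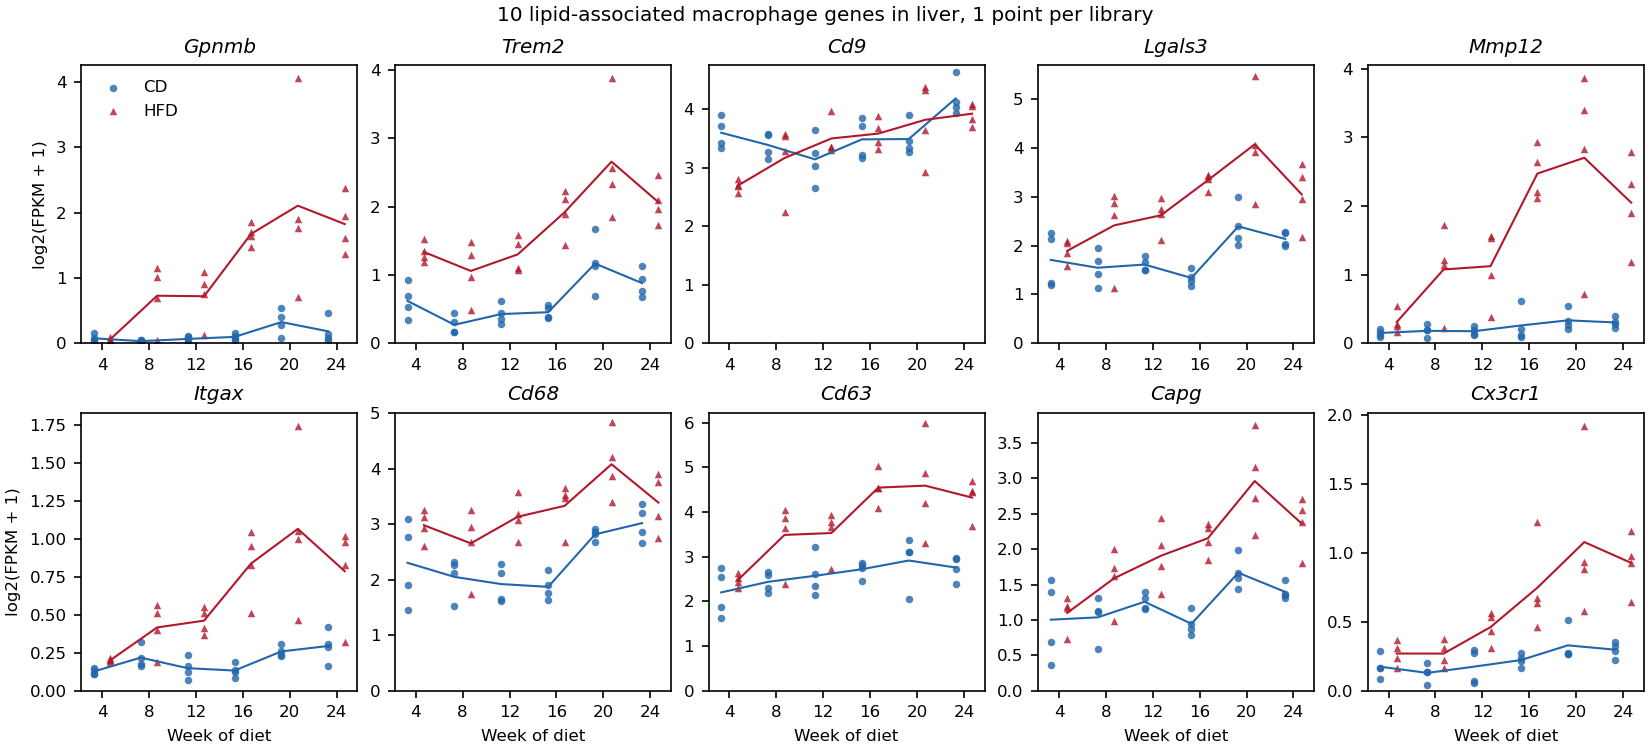
Level of each gene in liver, as log2(FPKM + 1), by week of diet, with 1 point per library (circles CD, triangles HFD, 4 per group) and a line through the group means. HFD group means lie above CD from week 8 on for every gene except Cd9, with the highest at week 20 and wide spread among the 4 HFD livers of that week.

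All 4 HFD livers lay above all 4 CD livers for 2 of the 10 genes in weeks 4 (Trem2, Itgax) and 8 (Trem2, Gpnmb), 7 in week 12, 9 in week 16, 7 in week 20 and 6 in week 24. For genes tested in liver, that share was 6.5% (week 4), 11% (week 8), 14.9% (week 12), 12.4% (week 16), 6.86% (week 20) and 7.88% (week 24). At week 16 only Cd9 overlapped between the diets. The median difference at week 20 was close to that of week 16, but the mice of that week spread widely, with HFD517 highest and HFD518 lowest of the 4 for all 10 genes. Without HFD518, 7 genes were called at week 20, and without any other library of that week 0 or 1 was called. At week 8 HFD217 was likewise lowest for all 10 genes, and without it 7 genes were called, against 0 without any other library of that week. At week 12 the count was 3 without any one of CD306, CD307, CD308, HFD313, HFD315 and HFD318. At week 24 it was 3 without CD605, CD606, CD608 or HFD611 and 2 without CD601 or HFD617. How many of all genes were called with a library left out was not counted, so these counts are descriptions.

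Averaged over the 6 weeks in one fit of the 48 livers, 7 of the 8 tested genes were higher in HFD mice, all but Cd9, at log2 fold changes between 0.79 (Capg) and 1.39 (Mmp12). The share of all tested genes called higher in this comparison was 35.6%, and their median log2 fold change was 0.08, against 1.07 for the 8 genes. The count was 7 with any of the 48 livers left out, and also without CD306 and CD407.

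The receptors Trem2, Cx3cr1 and Itgax were low in CD livers. Trem2 (gene ID 83433, chr17:48346401-48352276, + strand) was at 0.27, 0.44, 0.61 and 0.89 FPKM in CD livers and at 1.29, 1.41, 1.54 and 1.89 FPKM in HFD livers of week 4, and besides Trem2 only Itgax had all HFD livers above all CD livers in that week. The log2 fold change of Trem2 of 0.72 ± 0.13 (SE) missed the threshold (adjusted p = 0.0872, limma). At week 16 the CD livers had 0.29, 0.3, 0.43 and 0.47 FPKM and the HFD livers 1.71, 2.71, 3.33 and 3.68 FPKM. The diets did not overlap in any of the 6 weeks for Trem2, alone among the 10 genes. Its difference passed at weeks 8 (0.79 ± 0.20, adjusted p = 0.0481), 12 (0.87 ± 0.13, adjusted p = 0.00854), 16 (1.46 ± 0.16, adjusted p = 7e-04) and 24 (1.18 ± 0.16, adjusted p = 0.0115). At week 20 HFD517 had 13.75 FPKM and the other HFD livers 2.61, 4.02 and 4.93 FPKM, above the CD livers, which ranged from 0.62 to 2.18 FPKM (1.49 ± 0.41, adjusted p = 0.108). Over the weeks the mean effect was 1.09 ± 0.10 (adjusted p = 6e-11).

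Cx3cr1 (gene ID 13051, chr9:120048683-120068296, - strand) was at 0.03 to 0.43 FPKM in the 24 CD livers. In HFD livers its group mean climbed from 0.207 FPKM (week 4) to 0.38 (week 12), 0.713 (week 16) and 1.25 (week 20) and was 0.915 FPKM in week 24, and 13 of 24 HFD livers lay above every CD liver. In the fit with no filter, it passed at week 24 alone (0.63 ± 0.10, adjusted p = 0.0481, limma), where the HFD livers had 0.56, 0.9, 0.97 and 1.23 FPKM and the CD livers 0.17, 0.22, 0.25 and 0.28 FPKM. That call was lost without any one library of the week except HFD611 (adjusted p up to 0.175), with median-ratio scaling (0.0505) and with no trend (0.0702), and week 16 passed with all 12 groups in one fit (0.0279) or a pseudocount of 0.1 (0.0266). Itgax (gene ID 16411, chr7:128129568-128150657, + strand) was at 0.05 to 0.34 FPKM in CD livers, and 15 of 24 HFD livers exceeded all of them. At week 16 it had 0.06, 0.09, 0.1 and 0.14 FPKM in CD and 0.43, 0.78, 0.94 and 1.07 FPKM in HFD livers, a mean ratio of 8.26. It passed at weeks 12 (0.31 ± 0.06, adjusted p = 0.0262) and 16 (0.70 ± 0.11, adjusted p = 0.00942). Its week 12 call was lost without CD307, CD308, HFD315 or HFD318 (adjusted p up to 0.0939) and with all 12 groups in one fit (0.161). On average over the weeks both were higher, Cx3cr1 by 0.40 ± 0.06 (adjusted p = 2.9e-06) and Itgax by 0.43 ± 0.06 (adjusted p = 2.7e-07). These folds on FPKM + 1 understate the change of genes at such low levels.

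Gpnmb and Mmp12 went from near 0 FPKM to clear levels. Gpnmb (gene ID 93695, chr6:49036518-49058182, + strand) did not separate the diets at week 4, where the CD livers had 0.01, 0.03, 0.06 and 0.12 FPKM and the HFD livers 0.02, 0.04, 0.04 and 0.07 FPKM. At week 8 the HFD livers had 0.04, 0.62, 1.01 and 1.22 FPKM and the CD livers 0.01 to 0.03 FPKM, the lowest HFD value being that of HFD217. At week 16 all 4 HFD livers were high, with 1.79, 2.12, 2.27 and 2.62 FPKM against 0.04, 0.05, 0.08 and 0.11 FPKM in CD livers, which is a log2 fold change of 1.57 ± 0.09 (adjusted p = 1.3e-05) and a ratio of group means of 31.4. At week 20 HFD517 reached 15.59 FPKM, while HFD511, HFD516 and HFD518 had 2.74, 2.39 and 0.63 FPKM and the CD livers 0.06 to 0.45 FPKM, and the difference of 1.78 ± 0.64 did not pass (adjusted p = 0.221). It passed at weeks 12 (0.65 ± 0.18, adjusted p = 0.0458) and 24 (1.64 ± 0.20, adjusted p = 0.00627). All 12 HFD livers of weeks 16, 20 and 24 were above the highest CD liver of any week, 0.45 FPKM.

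Mmp12 (gene ID 17381, chr9:7344397-7360461, + strand) had 0.05 to 0.53 FPKM in the 24 CD livers, and all 12 HFD livers of weeks 16 to 24 exceeded that range. At week 16 the CD livers had 0.07, 0.09, 0.15 and 0.53 FPKM and the HFD livers 3.34, 3.6, 5.25 and 6.6 FPKM (2.21 ± 0.19, adjusted p = 0.000234). At week 20 the HFD livers had 0.65, 6.12, 9.5 and 13.52 FPKM against 0.16 to 0.45 FPKM, with a ratio of group means of 28.1 and a log2 fold change of 2.37 ± 0.62 that did not pass (adjusted p = 0.102). At week 24 the HFD livers had 1.27, 2.73, 4.01 and 5.9 FPKM and the CD livers 0.17, 0.21, 0.24 and 0.32 FPKM (1.75 ± 0.28, adjusted p = 0.0285), and it passed at week 12 as well (0.95 ± 0.23, adjusted p = 0.0372). Its mean effect over the weeks, 1.39 ± 0.15 (adjusted p = 1.9e-09), was the largest of the 10 genes.

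Lgals3 (gene ID 16854, chr14:47373860-47386167, + strand) was present in CD livers, at 1.54 ± 0.285 FPKM (SD, n = 4) in week 16, and reached 9.15 ± 1.07 FPKM (SD, n = 4) in HFD livers of that week. The CD values were 1.25, 1.42, 1.56 and 1.92 FPKM and the HFD values 7.6, 9.3, 9.76 and 9.96 FPKM, groups far apart and each narrow (2.00 ± 0.11, adjusted p = 1.0e-05). At week 12 the CD livers had 1.81 to 2.47 FPKM and the HFD livers 3.35 to 6.83 FPKM (1.01 ± 0.17, adjusted p = 0.0116). At week 20 HFD517 had 43.47 FPKM and the other HFD livers 6.24, 14.02 and 15.6 FPKM, while CD502 had 6.99 FPKM, so that the diets overlapped (1.68 ± 0.51, adjusted p = 0.143).

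Among the lysosomal and tetraspanin genes, Cd63 and Cd68 were higher in HFD livers and Cd9 was not. Cd63 (gene ID 12512, chr10:128908919-128912822, + strand) had 4.52, 5.68, 6.01 and 6.29 FPKM in CD and 16.13, 22.15, 22.15 and 31.41 FPKM in HFD livers at week 16 (1.83 ± 0.18, adjusted p = 0.000449), and it passed again at week 24, at 4.23 to 6.87 FPKM in CD and 11.97 to 24.73 FPKM in HFD livers (1.56 ± 0.21, adjusted p = 0.0115). At week 12 the CD liver of CD306, which carried beta cell transcripts, had the highest Cd63 of its group, 8.24 FPKM beside 3.42, 4.05 and 5.08 FPKM. The part of islet RNA in that value was not tested. At week 12 Cd63 did not pass (0.96 ± 0.30, adjusted p = 0.0756). Its mean effect was 1.22 ± 0.15 (adjusted p = 4e-08), and 1.27 ± 0.16 (adjusted p = 5.5e-08) without the livers of CD306 and CD407.

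Cd68 (gene ID 12514, chr11:69664213-69666170, - strand), a general macrophage marker, was at 1.74 to 9.29 FPKM in CD livers. It passed at weeks 12 (1.21 ± 0.21, adjusted p = 0.0132), 16 (1.46 ± 0.21, adjusted p = 0.0043) and 20 (1.26 ± 0.26, adjusted p = 0.0399). At week 20 the CD livers had 5.4, 6.08, 6.3 and 6.54 FPKM and the HFD livers 9.54, 13.66, 17.67 and 27.67 FPKM. At week 24 the groups overlapped, with 5.34 to 9.29 FPKM in CD and 5.74 to 14.08 FPKM in HFD livers (0.37 ± 0.26, adjusted p = 0.553), and in CD livers its group mean was 7.27 ± 1.79 FPKM (SD, n = 4) there against 2.7 ± 0.616 FPKM (SD, n = 4) at week 16. Capg (gene ID 12332, chr6:72538282-72562983, + strand) passed at week 16, with 0.72, 0.84, 0.93 and 1.26 FPKM in CD and 2.61, 3.29, 3.94 and 4.14 FPKM in HFD livers (1.21 ± 0.13, adjusted p = 0.00075), and at week 24 (0.97 ± 0.18, adjusted p = 0.0392).

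Cd9 (gene ID 12527, chr6:125460266-125494755, - strand) took another course. At week 4 it was lower in every HFD liver, with 4.91, 5.46, 5.5 and 6.02 FPKM against 9.09, 9.77, 12.16 and 14.01 FPKM in CD livers, and the log2 fold change of -0.91 ± 0.14 had an adjusted p of 0.0572. Of all genes tested, 1.97% lay below in this way at week 4. From week 8 to week 24 its difference lay between -0.26 and 0.36 and did not pass in any week, and its mean effect was -0.10 ± 0.10 (adjusted p = 0.452). No HFD liver exceeded the highest CD liver, 23.79 FPKM.

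**Figure D2:**
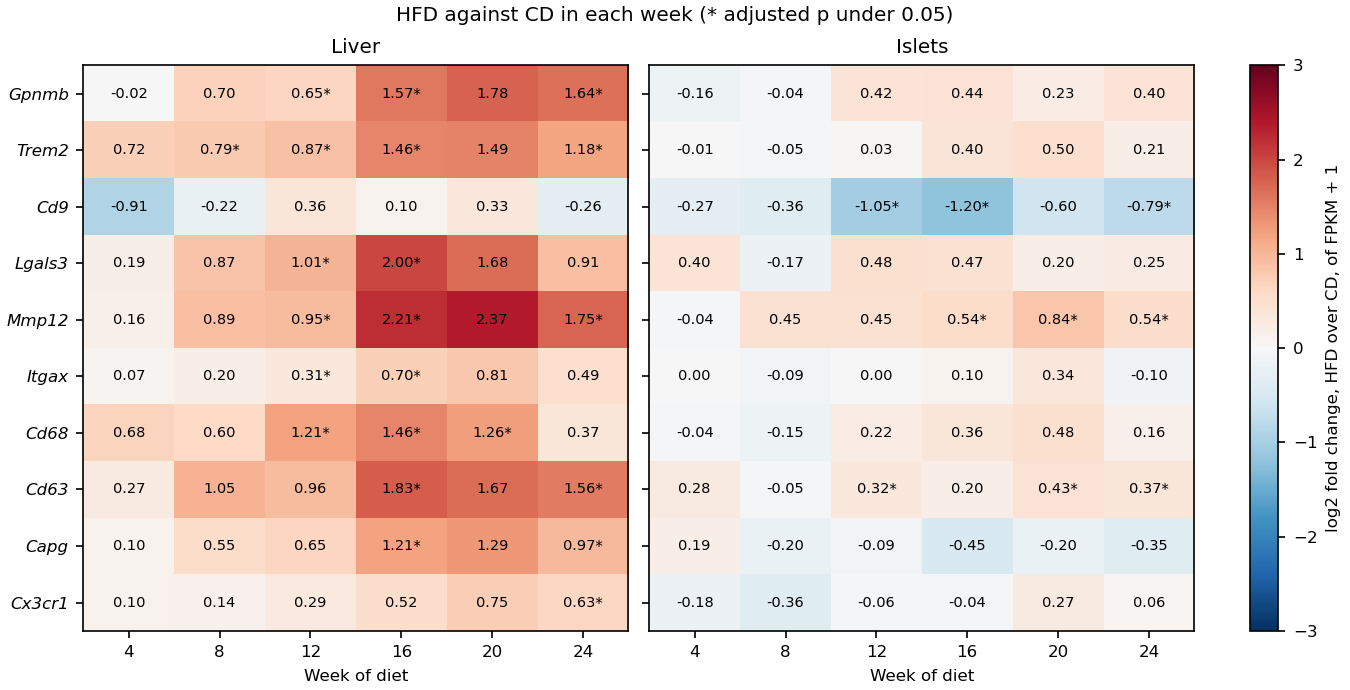
Log2 fold change (HFD over CD, of FPKM + 1) of the 10 genes in each week of diet, in liver on the left and islets on the right, from 4 libraries against 4, with an asterisk for an adjusted p under 0.05. Itgax and Cx3cr1 in liver and Gpnmb in islets are from the fit with no filter. The liver columns are darkest at weeks 16 and 20, while in islets only Cd9, Mmp12 and Cd63 carry asterisks.

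Week 24 was compared with week 4 within each diet, and whether that change differed between the diets was not tested. In CD livers none of the 8 genes was called, but all 8 had a log2 fold change above 0, with a median of 0.41, beside 1.25 in HFD livers. In CD livers 2 had an unadjusted p under 0.05, Cd68 (0.72 ± 0.31, adjusted p = 0.0666) and Cd9 (0.59 ± 0.25, adjusted p = 0.0642). Of all genes tested, 22.2% were called higher at week 24 in CD livers. In HFD livers 7 of the 8 were higher at week 24, all but Cd68, against 12.2% of all genes, at log2 fold changes between 0.73 (Trem2) and 1.85 (Cd63). Cd9 was among them (1.23 ± 0.25, adjusted p = 0.000581), from 5.47 ± 0.454 FPKM at week 4 to 14.3 ± 1.94 FPKM at week 24 (SD, n = 4). With the filter removed, Cx3cr1 (0.66 ± 0.15, adjusted p = 0.00259) and Itgax (0.59 ± 0.14, adjusted p = 0.0038) were also higher. The HFD group mean was highest at week 20, the week of HFD517, for all of the genes but Cd9. By the group median, which 1 mouse moves less, Cx3cr1 was higher at week 24 (0.935 FPKM) than at week 20 (0.875 FPKM). The median of Gpnmb was nearly level, at 2.45 FPKM (week 24) and 2.57 FPKM (week 20).

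The HFD effect on 2 genes was larger in late weeks (16, 20 and 24) than in early weeks (4, 8 and 12), against 0.0807% of all genes: Mmp12 by 1.44 ± 0.30 (adjusted p = 0.0237) and Gpnmb by 1.22 ± 0.26 (adjusted p = 0.0354). These are the 2 genes that passed the filter through the HFD livers alone. Their presence among the tested genes favours such a difference, so the count beside that share is a description. For Trem2 the difference was 0.59 ± 0.20 (adjusted p = 0.381), and for Cd68 0.20 ± 0.25 (adjusted p = 0.892). Both calls were lost without the CD306 and CD407 livers (adjusted p = 0.0616 and 0.0701), although the differences stayed at 1.42 ± 0.31 and 1.23 ± 0.28, and with a pseudocount of 0.1 (adjusted p = 0.119 and 0.0837). Leaving out 1 liver at a time took the call from Gpnmb in 23 of 48 cases.

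Mice of the same diet and week differed in most of the genes together, with Cd9 the least. With group means (diet by week) taken off, the 45 pairs of genes had a median Pearson r of 0.67 over the 48 livers, and 38 of the 45 had an adjusted p under 0.05 (permutation within groups, 100000 resamples, two-sided, Benjamini-Hochberg over the 45). By Spearman's rho, with a median of 0.47, 34 passed. The highest pair was Lgals3 with Capg (r = 0.89, rho = 0.81, adjusted p = 8e-05 and 0.00015, both from the smallest p that the permutations can give), followed by Cd68 with Capg (r = 0.85, rho = 0.76). The 9 pairs with Cd9 were weaker, at r between 0.24 and 0.58, and 3 of them passed. The size of r rested in part on single mice: r was above 0.5 in 34 pairs, and in 23 after the 2 mice farthest from the median of the first gene were left out. For Gpnmb with Cx3cr1 r then fell from 0.77 to 0.39, and for Mmp12 with Cx3cr1 from 0.43 (adjusted p = 0.277) to -0.09, whereas Lgals3 with Capg kept 0.87.

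**Figure D3:**
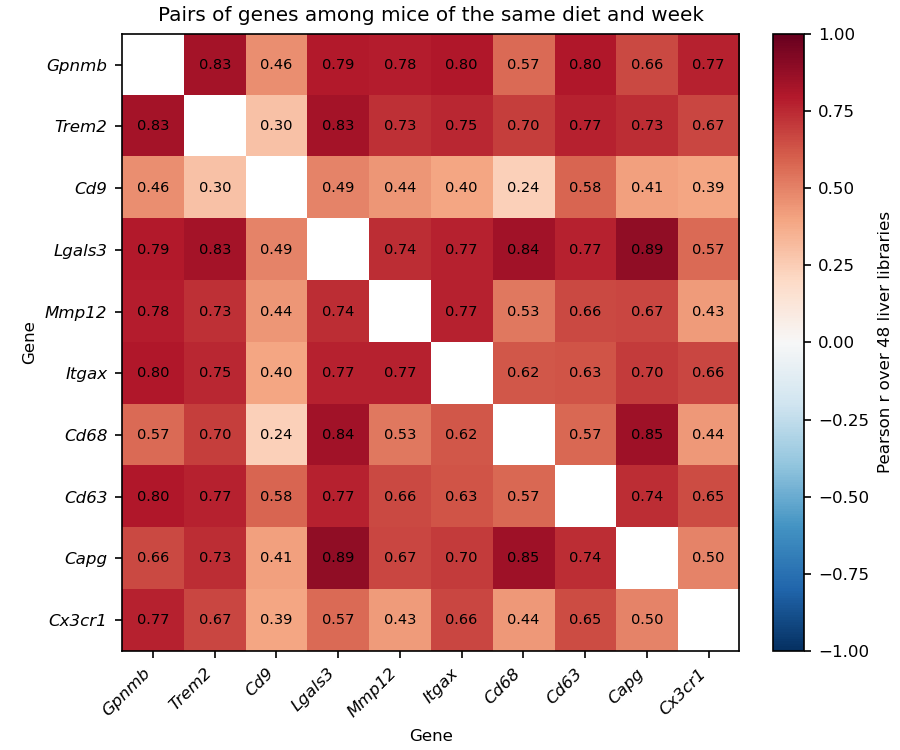
Pearson r between the 10 genes over the 48 livers with group means taken off, from log2(FPKM + 1). The row and column of Cd9 are the palest, at 0.24 to 0.58, and Lgals3 with Capg is the darkest pair, at 0.89.

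The genes were next set beside markers of macrophages at large. The sum of 8 pan-macrophage genes, 28.62 to 87.39 FPKM in CD livers (median 50.63), was 36.91 to 218.9 FPKM in HFD livers (median 73.0). In the mean effect 7 of the 8 were called higher, against 35.6% of all genes, with Cd14 (0.79 ± 0.11), Mpeg1 (0.76 ± 0.10), Lyz2 (0.68 ± 0.12) and Adgre1, the F4/80 antigen (0.66 ± 0.11), in front. The median of the 8 was 0.57, against 1.07 for the lipid-associated genes. HFD517 had 218.9 FPKM of pan-macrophage genes, HFD518 96.12, HFD316 63.46 and HFD217 36.91 FPKM. Among the HFD livers of their own weeks, HFD518 and HFD217 had the lowest pan-macrophage sum, as they had the lowest levels of the 10 genes. HFD316 was above HFD313 (58.39 FPKM) only. The sum of HFD518 was still above that of every CD liver. Over the 48 livers, the mean log2 level of the 10 genes and that of the pan-macrophage genes had an r of 0.86, and 0.68 after subtracting group means, a description in which both come from the same libraries.

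With the pan-macrophage score of each liver entered as a covariate (this fit was added once the data had been seen), 4 genes were still higher in HFD livers on average: Mmp12 (0.97 ± 0.20, adjusted p = 0.00131), Cd63 (0.72 ± 0.20, adjusted p = 0.0135), Trem2 (0.68 ± 0.12, adjusted p = 0.000198) and Gpnmb (0.61 ± 0.17, adjusted p = 0.0163). Lgals3 (0.41 ± 0.15, adjusted p = 0.0776), Capg (0.26 ± 0.10, adjusted p = 0.0857) and Cd68 (0.23 ± 0.11, adjusted p = 0.182) no longer passed, nor did Itgax (0.20 ± 0.07, adjusted p = 0.0792) and Cx3cr1 (0.19 ± 0.08, adjusted p = 0.149) in the fit with no filter. The score changes with diet itself. How many of all genes were called in this fit was not counted, so the 4 are a description. Mmp12 and Gpnmb are the genes that passed the filter through the HFD livers alone.

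**Figure D4:**
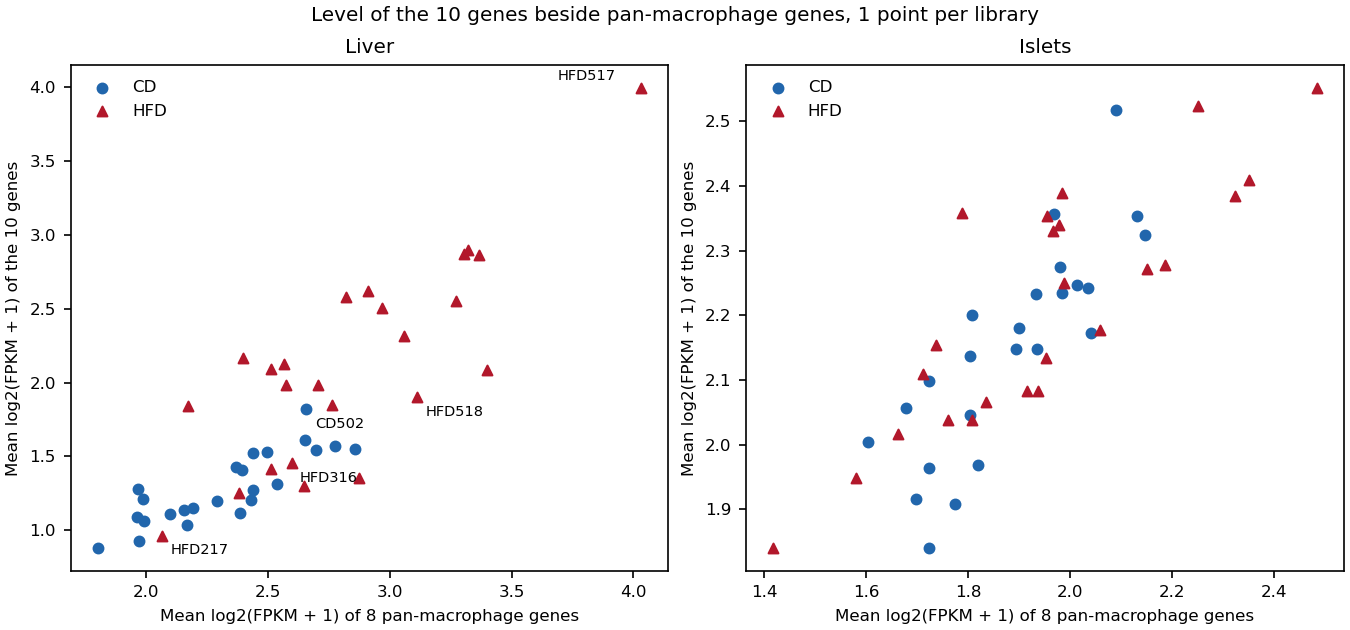
Mean log2(FPKM + 1) of the 10 genes (vertical) against that of 8 pan-macrophage genes (horizontal), 1 point per library, in liver (left) and islets (right), on axes of their own. Many HFD livers lie beyond 2.86, the highest pan-macrophage mean of a CD liver, and have no CD liver of like level. Below it, some HFD livers lie above the CD livers and others lie among them. HFD517 is the highest on both axes, and in islets the diets are mixed.

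Other genes known from lipid-associated macrophages were counted from a list of 20. In the mean effect in liver 15 were called higher and 2 lower, against 35.6% and 6.68% of all genes, with a median of 0.33. The largest were Lgals1 (2.04 ± 0.14), the lectin galectin-1, Anxa2 (1.96 ± 0.16) and Anxa5 (1.07 ± 0.10), which bind phospholipids, and Il1rn (0.95 ± 0.09), the antagonist of the interleukin-1 receptor. The cathepsins Ctsb, Ctsd and Ctsz rose by 0.28 to 0.33, while Ctsl did not pass (-0.02 ± 0.06, adjusted p = 0.817). The lipid carrier Fabp5 (-0.73 ± 0.20, adjusted p = 0.00287) and the proton pump subunit Atp6v0d2 (-0.28 ± 0.09, adjusted p = 0.0147) were lower. Many genes of this list are also made by hepatocytes and other liver cells.

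Of the 9 partners of Trem2, 7 were tested and 6 were higher on average, with Tyrobp, its adaptor, the most changed (0.74 ± 0.11, adjusted p = 2.2e-06). The counts in this paragraph stand beside the 35.6% of all genes called higher in the mean effect. The lipoprotein Apoe (0.30 ± 0.06), the kinase Syk (0.30 ± 0.06) and the phosphatase Inpp5d (0.30 ± 0.06) changed less, and Hcst (0.08 ± 0.08, adjusted p = 0.402) did not pass. Of a list of 5 genes set beside Cx3cr1 and the integrin, 3 were tested in liver and all 3 were higher. Itgb2, the beta chain that pairs with Itgax, was higher by 0.57 ± 0.08. The other tested genes, Fcer1g (0.70 ± 0.11) and Itgal (0.40 ± 0.07), are not partners of Cx3cr1 or of Itgax.

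Markers of other liver cells moved with the genes in part, and their counts stand beside the 35.6% of all genes called higher and the 6.68% called lower. Of 10 Kupffer cell genes 5 were higher and 1 lower (Cd163, -0.27 ± 0.08). The 5 were C1qb (0.62 ± 0.12), Cd5l (0.58 ± 0.14), C1qc (0.57 ± 0.12), C1qa (0.44 ± 0.11) and Vsig4 (0.26 ± 0.10). Clec4f (0.23 ± 0.10, adjusted p = 0.0603), Timd4 (-0.10 ± 0.09, adjusted p = 0.395), Folr2 (0.21 ± 0.12) and Marco (0.15 ± 0.18) did not pass. Monocyte genes summed to 5.34 to 13.25 FPKM in CD and 6.64 to 41.72 FPKM in HFD livers, and all 4 tested were higher. All 8 stellate cell and fibroblast genes were higher, led by Col1a1 (1.36 ± 0.20) and Col3a1 (1.31 ± 0.19). No tested gene of the dendritic cell (2), T and NK cell (1), B cell (2) or cholangiocyte (3) lists was called. Neutrophil genes (2 of 3) and endothelial genes (1 of 6) were higher, of 8 hepatocyte genes 1 was lower (Cps1), and 3 of 4 tested beta cell genes were lower in HFD livers (Ins2, -2.05 ± 0.66), with the CD306 and CD407 livers in the CD groups. The adipocyte sum was 1.27 to 8.03 FPKM in CD and 2.91 to 30.71 FPKM in HFD livers, with group means of Cfd between 0.12 and 17.07 FPKM in HFD livers, while Adipoq was at or under 0.1 FPKM in every liver. The part of these cells in the levels of the 10 genes was not tested.

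In islets of the same mice fewer of the genes were called. Levels there were lower for Lgals3, Cd68 and Cd9. They were higher for Itgax (mean of 48 libraries 1.65 FPKM in islets against 0.378 in liver), Cx3cr1 (1.88 against 0.391 FPKM) and above all Cd63 (443.4 against 10.9 FPKM). Cd63 was at 325.3 to 604.8 FPKM in every islet library. Gpnmb was lower in islets than in liver in HFD mice (mean 0.428 against 1.94 FPKM) but higher in CD mice (0.208 against 0.0996 FPKM). The same held for Mmp12 (HFD 1.58 against 3.07, CD 0.899 against 0.181 FPKM) and Trem2 (HFD 1.09 against 2.77, CD 0.838 against 0.608 FPKM). It also held for Capg (HFD 1.84 against 3.56, CD 2.25 against 1.4 FPKM). Of the 9 genes that passed the filter in islets, 3 were called higher and 1 lower in the mean effect, against 16.4% and 22.2% of all genes. Cd63 (0.26 ± 0.03, adjusted p = 7.9e-08), Mmp12 (0.46 ± 0.07, adjusted p = 6.9e-07) and Trem2 (0.18 ± 0.06, adjusted p = 0.011) were higher. By week, the genes called higher were Cd63 at week 12 (1.98% of all genes), Mmp12 at week 16 (3.23%), and Cd63 and Mmp12 at weeks 20 (1.58%) and 24 (6.08%). At week 20 Mmp12 had 0.25, 0.43, 0.48 and 0.54 FPKM in CD and 1, 1.3, 1.71 and 2.31 FPKM in HFD islets (0.84 ± 0.15, adjusted p = 0.0151). These calls rested on few libraries. At week 12, 3 genes were called without CD306 and 0 without CD308, HFD315 or HFD316. At week 16 the count was 3 without CD407 and 2 without HFD418. At week 20 it was 4 without HFD511, 0 without HFD517 and 1 without each of the other 6. At week 24 it was 1 without CD601, CD605, CD608, HFD614, HFD616 or HFD617. How many of all genes were called in these refits was not counted.

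**Figure D5:**
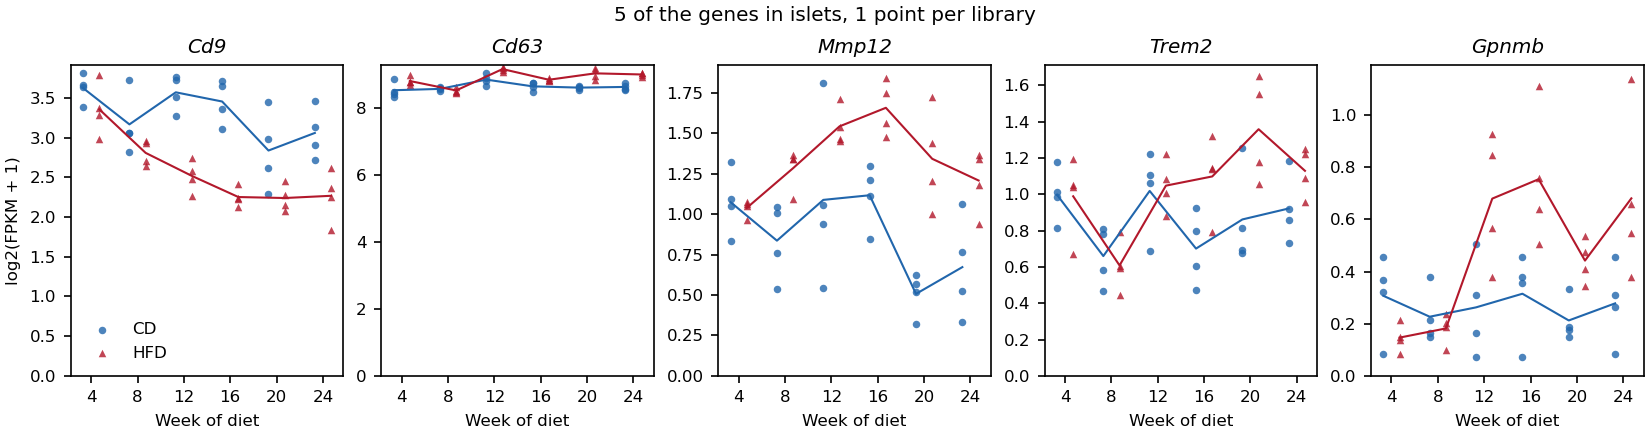
Level of 5 of the genes in islets, as log2(FPKM + 1), by week of diet, with 1 point per library (circles CD, triangles HFD, 4 per group) and a line through the group means. Cd9 lies below CD in every week by its group mean, Cd63 stays far above the other genes in both diets, and no Gpnmb value exceeds 1.2 FPKM.

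Cd9 fell in HFD islets. At week 12 the CD islets had 8.7, 10.44, 12.24 and 12.64 FPKM and the HFD islets 3.82, 4.6, 4.98 and 5.68 FPKM, without overlap (-1.05 ± 0.13, adjusted p = 1.8e-05), and at week 16 7.61 to 12.13 FPKM stood against 3.36 to 4.35 FPKM (-1.20 ± 0.12, adjusted p = 9.6e-05). It was lower again at week 24 (-0.79 ± 0.20, adjusted p = 0.0407), a call lost without CD601, CD606, CD608, HFD611 or HFD616, and on average (-0.71 ± 0.08, adjusted p = 3.7e-09). Of all genes, 2.84% were called lower at week 12, 5.94% at week 16 and 2.31% at week 24. Gpnmb, with a mean of 0.318 FPKM, did not pass the filter in islets, and in the fit with no filter its mean effect was 0.21 ± 0.05 (adjusted p = 0.00103). The mean effects on Itgax (0.04 ± 0.05, adjusted p = 0.557) and Cx3cr1 (-0.05 ± 0.05, adjusted p = 0.45) in islets did not pass. Pan-macrophage genes in islets summed to 21.29 to 44.9 FPKM in CD and 16.24 to 62.65 FPKM in HFD mice.

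The difference between the tissues was tested within mice, as liver minus islets of each mouse. With its sign, the HFD effect was higher in liver than in islets for all 10 genes, against 36% of all genes. The difference was 0.39 (Itgax) to 0.98 (Capg) on the log2 scale, with a median of 0.84. For Cd9 the difference of 0.61 ± 0.13 (adjusted p = 0.000238) stands between -0.10 in liver and -0.71 in islets. It reflects a fall in islets and no rise in liver. The count stayed at 10 with each of the 48 mice left out. Levels of a gene in liver and in islets of the same mouse were compared after group means were subtracted. Over the 48 mice the 10 Pearson r lay between -0.18 and 0.20 and none passed (adjusted p = 0.99955 for each, permutation within groups, Benjamini-Hochberg over the 10), with Spearman's rho for Itgax the highest at 0.38 (p = 0.0118, adjusted p = 0.118). Among the week 20 mice, HFD518, lowest of 4 for all 10 genes in liver, was highest for 7 of the 10 in islets, and HFD517, highest for all 10 in liver, was highest for 2 in islets.

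Across all genes of the liver, those most like the mean standardised level of the 10 genes over the 48 livers were Stk10 (r = 0.97), Iqgap1 (0.95), Clip2 (0.94), Abr (0.94), Basp1 (0.94), Myo1f (0.93), S100a11 (0.92), Uap1l1 (0.92), Fam83a (0.92) and Ly9 (0.92), out of 11144 genes ranked. After subtracting group means, the 10 most alike were Iqgap1 (0.91), S100a11 (0.87), Clip2 (0.87), Stk10 (0.87), Myo1f (0.85), Cstb (0.85), Frmd6 (0.84), Cbr3 (0.84), Col5a1 (0.83) and Tmsb10 (0.82). Stk10, Iqgap1, Clip2, Myo1f and S100a11 are in both lists. These r are descriptions over libraries that share a diet and week.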

How the data were processed

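Poly(A) RNA of islets (collagenase P, density gradient, hand-picked) and of liver (flash frozen) was sequenced on a BGISEQ-500. The FPKM values were deposited by the authors with 2 decimals and used as deposited. No counts were given in the table, so depth and counting error are unknown. The submitters' processing notes name HISAT2 2.0.4, Bowtie2 2.2.5, RSEM 1.1.12, DESeq2 and GRCm38.p5 without a role. Columns with the authors' own comparisons, group averages and clusters were not used.

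Groups followed the labels (diet, week, tissue). Differences were tested with limma 3.58.1 in R 4.3.3 (trend, robust) on log2(FPKM + 1), for genes with a mean of at least 0.5 FPKM over the 48 libraries of the tissue, with Benjamini-Hochberg adjustment over all tested genes and a threshold of 0.05. Single weeks were fitted on their 8 libraries, and mean, late minus early and week 24 minus week 4 effects on all 48. Liver and islet libraries of a mouse were paired by its number, since they came from the same animal, and the tissue contrast was fitted on the difference within each mouse. Scripts were tested on simulated data. The members and the gene lists were chosen with earlier results of these data known, and Capg, Itgax, Cd63 and Cx3cr1 are among the genes the study picked from these libraries, so their direction is not independent evidence. All 10 genes were named by rule, other genes as the leading members of lists or by likeness. Alternatives covered the pseudocount, filter, scaling, variance model, fit, fold minimum and each library left out. The covariate, the 2 livers left out together and the adipocyte list were added after the data were seen. Python 3.11.15 was used for permutations and figures.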

Additional observations from a re-analysis of the deposited data

Results flagged for a closer look

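Of 240 groups of 4 libraries (10 genes, 2 tissues, 12 groups), 5 (2.08%) held a library that stood far from the other 3 by Dixon's criterion, where chance gives about 1 in 20. Capg was at 3.93 FPKM in the islets of CD203 at week 8, with the nearest library at 1.48 FPKM. Cd68 was at 1.37 FPKM in the islets of CD308 at week 12 (nearest 2.41 FPKM), and Mmp12 at 1.13 FPKM in the islets of HFD211 at week 8 (nearest 1.53 FPKM). In liver, Cd9 was at 14.64 FPKM in HFD315 at week 12 (nearest 9.28 FPKM), and Cx3cr1 at 0.43 FPKM in CD502 at week 20 (nearest 0.21 FPKM).

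The HFD effect differed between liver and islets of the same mice for all 10 genes, tested as liver minus islets (limma). The difference in log2 fold change was 0.98 for Capg, 0.97 for Cd63, 0.92 for Mmp12, 0.91 for Trem2, 0.84 for Gpnmb, 0.84 for Lgals3, 0.76 for Cd68, 0.61 for Cd9, 0.46 for Cx3cr1 and 0.39 for Itgax, with adjusted p between 8.5e-08 (Trem2) and 0.000848 (Lgals3). In liver, the HFD effect differed between late and early weeks by 1.44 for Mmp12 (adjusted p = 0.0237) and by 1.22 for Gpnmb (adjusted p = 0.0354, limma). Both genes passed the filter through the HFD livers alone, which favours such a difference. Both calls were lost without the CD306 and CD407 livers and with a pseudocount of 0.1.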

How the results depend on the processing

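No value of a single gene that was called, as reported or under an alternative, changed its direction. Of these values 5122 kept direction and side of the threshold, 89 passed it, 135 lost it, and 43 changed sign without being called in either fit. The number of the genes called higher moved by more than 1.5 times as follows. In liver at week 8 the count of 1 became 0 with no filter, with 1 FPKM in 4 libraries and with a log2 fold change of at least 1. At week 12 the count of 5 became 2 with that fold minimum, 3 with 1 FPKM in 4 libraries and 2 with all 12 groups in one fit. At week 20 the count of 1 became 7 with all 12 groups in one fit, 2 with median-ratio scaling, 2 with a pseudocount of 0.1 and 0 with no filter. The mean effect went from 7 to 4 with the pan-macrophage score as a covariate. Late minus early went from 2 to 1 with the covariate, 0 with a pseudocount of 0.1 and 0 without the CD306 and CD407 livers. Smaller moves were 5 to 4 at week 12 (scaling, no filter, no trend) and at week 24 (fold minimum, scaling), 7 to 8 at week 16 (no filter), 7 to 8 (1 FPKM in 4 libraries) or 9 (no filter) in the mean effect and in week 24 minus week 4 in HFD, where a pseudocount of 0.1 gave 6, and, in islets, 2 to 3 at week 20 (all 12 groups in one fit) and 3 to 4 in the mean effect (scaling, no filter).

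In islets at week 12 the count of 1 became 0 with the fold minimum, no filter, or no trend and no robust fit. At week 16 it became 0 with the fold minimum and 2 with median-ratio scaling, and at week 20 the count of 2 became 0 with the fold minimum. At week 24 the count of 2 became 0 with the fold minimum or median-ratio scaling and 1 with no filter, no trend or a pseudocount of 0.1. The count called lower became 1 at week 20 with all 12 groups in one fit, 0 at week 24 with the fold minimum, and 2 in the mean effect with the covariate (Cd9 and Capg). The causes were not tested.

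With 1 library left out, the liver counts ranged from 0 to 7 at week 8, 3 to 7 at week 12, 7 to 7 at week 16, 0 to 7 at week 20, 2 to 6 at week 24, 1 to 3 for late minus early, 0 to 2 for week 24 minus week 4 in CD (2 without HFD217, 1 without CD101, CD103 or HFD518) and 5 to 7 in HFD. Islet counts called higher ranged from 0 to 3 at week 12, 1 to 3 at week 16, 0 to 4 at week 20, 1 to 2 at week 24, 3 to 5 in the mean effect (5 without HFD114) and 0 to 2 for late minus early (2 without HFD511), and those called lower from 1 to 2 at week 16 (2 without CD403) and 0 to 1 at week 24. How many of all genes were called with a library left out was not counted, so these counts are descriptions. For liver minus islets, the fit with no replicate block, without the pairing by mouse, gave the same count of 10. The pairing changed no call of a gene there. Of the 45 pairs of genes, 38 passed, and 40 with a pseudocount of 0.1. Depth is unknown, and fold changes of genes under 1 FPKM, Itgax and Cx3cr1 among them, are compressed by the pseudocount.

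The log2 fold changes that changed sign belonged to differences with an adjusted p of at least 0.497 as reported (limma). With median-ratio scaling, Cd9 in liver at week 16 was -0.039, and in islets Trem2 at week 4 was 0.0076 and Cd63 at week 8 was 0.076. With a pseudocount of 0.1, Itgax in islets at week 4 was -0.0047. With the covariate, Cd68 late minus early in liver was -0.105, and in islets Lgals3 late minus early was -0.151 and the mean effect on Itgax -0.00064. With 1 library left out, the liver values ranged from -0.037 to 0.013 (Gpnmb) and from -0.117 to 0.282 (Capg) at week 4, and for Cd9 from -0.362 to 0.082 at week 8 and from -0.0076 to 0.222 at week 16. In islets at week 4 the ranges were -0.078 to 0.098 (Trem2), -0.177 to 0.683 (Lgals3, below 0 without HFD118), -0.116 to 0.048 (Mmp12), -0.089 to 0.107 (Itgax) and -0.162 to 0.070 (Cd68). At week 8 they were -0.070 to 0.0057 (Gpnmb), -0.117 to 0.0033 (Trem2), -0.287 to 0.0026 (Lgals3) and -0.294 to 0.049 (Capg), and at week 12 -0.082 to 0.096 (Trem2), -0.049 to 0.048 (Itgax) and -0.201 to 0.018 (Capg). For Cx3cr1 they were -0.104 to 0.012 at week 16 and -0.057 to 0.161 at week 24, and for Lgals3 late minus early -0.026 to 0.260.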
